A study of Mus musculus with 6 samples.

Results

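A set of 10 genes whose products carry a cell from rest through G1 into DNA synthesis was examined in mouse kidney after renal ischemia-reperfusion injury (IRI). These were the D-type cyclins Ccnd1, Ccnd2 and Ccnd3, the cyclin-dependent kinases Cdk2, Cdk4 and Cdk6, the inhibitors Cdkn1b, Cdkn1c and Cdkn2c, and the retinoblastoma gene Rb1. They were chosen by symbol, as 10 of the 21367 genes in the deposited table, and all 10 had enough reads to be tested. One group was 3 Ptpn6+/mev mice, which are heterozygous for the viable motheaten allele, a T-to-A change at a splice site of Ptpn6, on a C57BL/6 background. Ptpn6 encodes the phosphatase SHP-1, and the labels call this genotype an SHP1 knockdown. The other group was 3 wild-type littermates. All 6 mice were 7 weeks old, lost the right kidney, had the pedicle of the left kidney clamped for 34 min, and gave the left kidney for poly-A RNA at 24 h of reperfusion. Both groups were injured, so the values compare genotypes after injury, and uninjured kidneys were not analysed here. The allele is present in every cell of the mouse, and whole kidney was sequenced.

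D-type cyclins are made when a resting cell receives growth signals, and they bind and activate the kinases CDK4 and CDK6. These kinases, and later cyclin E with CDK2, phosphorylate the retinoblastoma protein, which then releases E2F transcription factors and so permits the genes of DNA synthesis to be transcribed. Inhibitors of the INK4 family, such as p18 from Cdkn2c, block CDK4 and CDK6, while those of the CIP/KIP family, such as p27 from Cdkn1b and p57 from Cdkn1c, bind cyclin-CDK complexes more broadly. Tubule cells of the kidney are mostly at rest, and many re-enter the cell cycle after ischemic injury.

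Each mouse gave 1 library, with 10271590 to 12361745 counts. Wild-type replicate 2 stood apart from the other 5 libraries: its normalization factor was 0.929 against 0.994 to 1.03, and its summed FPKM (fragments scaled to transcript length and to library size) over 10 endothelial markers was 138.0 against 323 to 359. For a number of genes and lists the result without it is given as well. Ptpn6 itself had 11.85, 14.66 and 13.61 FPKM in the Ptpn6+/mev mice and 17.47, 10.87 and 15.44 FPKM in the wild-type mice, with an adjusted p of 0.715 in edgeR's quasi-likelihood test. These totals over the gene do not resolve the splice-site change and so do not check the genotype labels. All 10 proximal tubule markers and all 10 distal nephron markers were detected in each mouse.

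By mean FPKM over the 6 mice, a scale that allows for transcript length, the order of the 10 genes was Cdk4 (103.6), Ccnd1 (90.9), Ccnd3 (59.5), Cdkn1c (19.5), Cdk2 (15.9), Cdk6 (15.1), Cdkn1b (11.5), Cdkn2c (10.3), Ccnd2 (3.70) and Rb1 (3.45). Of the gaps in this order, 2 were seen in every mouse: Ccnd3 lay above Cdkn1c in 6 of 6 mice, by 1.62 ± 0.22 (SD) on the log2 scale, and Cdkn2c lay above Ccnd2 in 6 of 6 mice, by 1.57 ± 0.72. The other neighbours changed places in 1 or 2 mice. By group means the wild-type mice kept this order. In Ptpn6+/mev mice Cdkn2c (12.26) lay above Cdkn1b (11.99), and Rb1 (3.423) above Ccnd2 (3.38). In exact sign-flip tests within mice, two-sided, no neighbour passed after Benjamini-Hochberg adjustment over the 9 pairs (smallest adjusted p = 0.141), and 6 mice cannot give an unadjusted p below 0.0313.

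Between the genotypes, with all 6 mice, Ccnd1 and Cdkn2c had the largest fold changes of the 10, and both lay higher in Ptpn6+/mev mice. That order did not hold without wild-type replicate 2, where Ccnd2 exceeded Cdkn2c in size, or without wild-type replicate 3, where Cdk6 exceeded Ccnd1. By edgeR's quasi-likelihood test with Benjamini-Hochberg adjustment over 13036 genes, 0 of the 10 genes passed a false discovery rate of 0.05. That threshold was passed by 0.138% of all tested genes. At an unadjusted p under 0.05, 4 of the 10 were higher (Ccnd1, Cdkn2c, Cdk6 and Cdk2), where 5.53% of all tested genes were higher at this level. None of the 10 was lower at this level, where 6.71% of all tested genes were. One of the 10, Ccnd1, passed in edgeR's exact test, where 2.99% of all genes passed, and in DESeq2's Wald test, where 2.97% passed. Leaving out wild-type replicate 2 from edgeR's quasi-likelihood fit, Ccnd1 alone among the 10 passed, where 1.8% of all genes passed. In normalized counts scaled to library size (CPM), 5 of the 10 (Ccnd1, Cdkn2c, Cdk6, Cdk2 and Cdk4) had every Ptpn6+/mev mouse above every wild-type mouse, as did 9.64% of all tested genes. One, Ccnd3, had every Ptpn6+/mev mouse below, as did 9.8% of all tested genes. In FPKM, which lacks that normalization, 4 of the 10 (Ccnd1, Cdkn2c, Cdk2 and Cdk4) had every Ptpn6+/mev mouse above, as did 13.99% of all tested genes. None had every Ptpn6+/mev mouse below in FPKM, where 6.38% of all tested genes did. By limma on log2(FPKM + 1) the median log2 fold change of all tested genes was 0.062. In edgeR's quasi-likelihood fit the median log2 fold change over the 10 genes was 0.16, where that of the 13036 genes was -0.0024, with 7 values above 0 and 3 below.

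**Figure D1:**
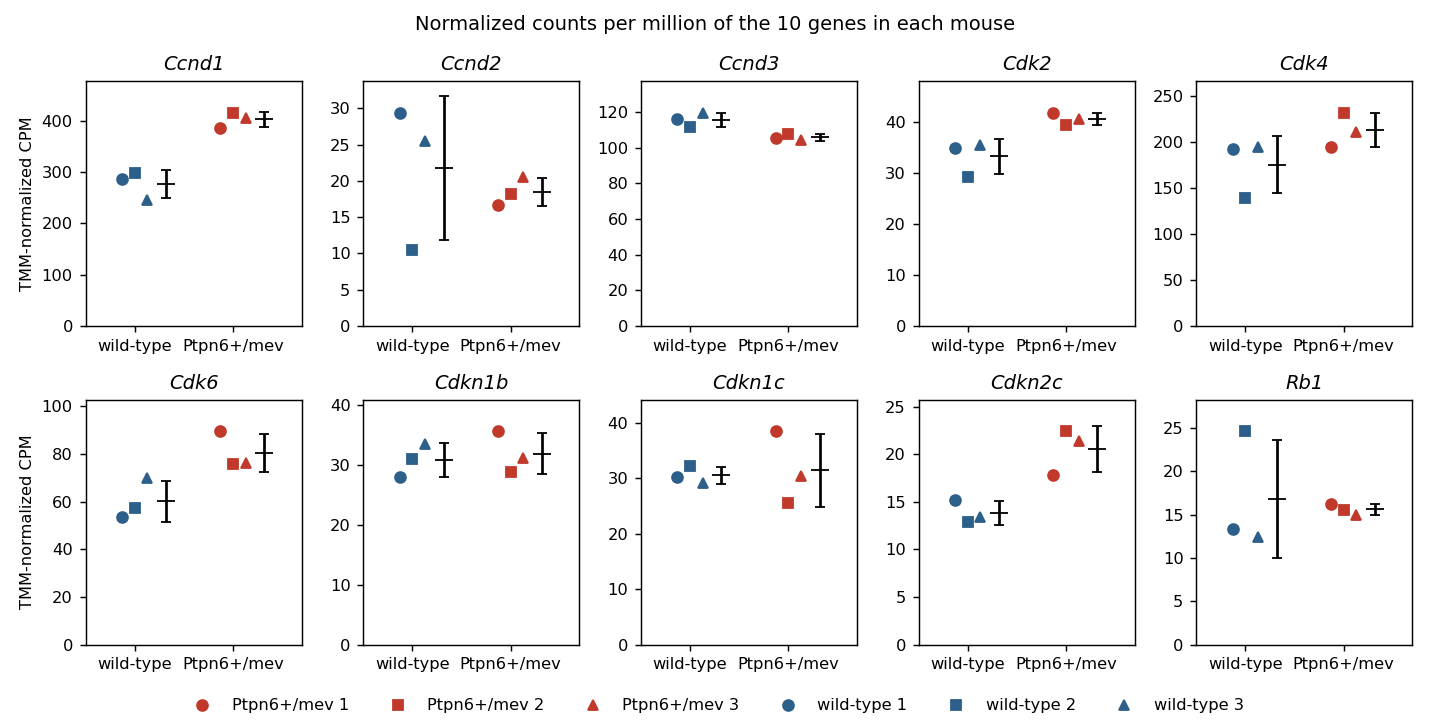
TMM-normalized counts scaled to library size (CPM, vertical axes from 0) of the 10 genes in each mouse, with wild-type mice in blue, Ptpn6+/mev mice in red and the mean ± SD of each group in black. Ccnd1 lies at 386 to 415 in Ptpn6+/mev mice and 245 to 298 in wild-type mice, while wild-type replicate 2 is the lowest mouse for Ccnd2 and the highest for Rb1.

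The 3 D-type cyclins did not share a direction. Ccnd1 encodes cyclin D1 and lies on the minus strand of chr7:144929931-144939925 (GRCm38). The Ptpn6+/mev mice stood at 105.43, 112.95 and 111.35 FPKM, given here and throughout as replicates 1, 2 and 3 in turn, and the wild-type mice at 76.07, 73.75 and 65.79 FPKM. Every Ptpn6+/mev mouse lay above every wild-type mouse, and the group means of 109.9 ± 3.96 and 71.9 ± 5.39 FPKM (SD, n = 3) were further apart than the mice within either group. The fold change was 1.46 (95% interval 1.25 to 1.7), or 0.54 on the log2 scale with a standard error of 0.097. The adjusted p of 0.0852 in edgeR's quasi-likelihood test missed the threshold. With edgeR's exact test it was 0.0038, then 0.000361 by DESeq2's Wald test, and 0.0200 when wild-type replicate 2 was left out of the quasi-likelihood fit. Over the 15 alternatives tried the log2 fold change of Ccnd1 ran from 0.46 to 0.61, while its adjusted p (edgeR, DESeq2 or limma) ranged from 0.000361 to 0.409, the highest without Ptpn6+/mev replicate 3. With 3038 to 4497 counts a mouse, counting error alone would give a coefficient of variation of 1.65%, against 3.71% and 10.1% between Ptpn6+/mev and wild-type mice in CPM.

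Ccnd3, which encodes cyclin D3 (plus strand, chr17:47505051-47599691), lay on the other side. Its normalized counts were 105.5, 107.6 and 104.0 CPM in Ptpn6+/mev mice and 115.7, 111.7 and 119.4 CPM in wild-type mice. The groups did not overlap in CPM, but they did in FPKM, where wild-type replicate 2 had the lowest value of all 6 mice (54.78). The log2 fold change of -0.13 had a 95% interval from -0.31 to 0.05, and the adjusted p was 0.582 in edgeR's quasi-likelihood test. A processed pseudogene, Ccnd3-ps, lies on chromosome 4, and how reads common to both were assigned is not given in the sources used here.

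Ccnd2, which encodes cyclin D2 (minus strand, chr6:127125162-127152193), was the least abundant D-type cyclin. Its FPKM was 2.68, 3.60 and 3.86 in Ptpn6+/mev mice and 5.77, 1.53 and 4.75 in wild-type mice. Wild-type replicate 2 was the lowest of all 6 mice, and the other wild-type mice were the highest. The log2 fold change was -0.24 (95% interval -1.0 to 0.52, adjusted p = 0.841 in edgeR's quasi-likelihood test). It turned to 0.024 without wild-type replicate 1. Without wild-type replicate 2 it was -0.57, with an adjusted p of 0.0681 in the same edgeR test, and over all 15 alternatives the adjusted p ranged from 0.0681 to 0.990.

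The same mouse was low in markers of stromal cells. The 10 endothelial markers summed to 323 to 332 FPKM in Ptpn6+/mev mice and to 359, 138.0 and 352 FPKM in wild-type replicates 1 to 3. Plvap, a protein of endothelial diaphragms, had 40.3 FPKM in wild-type replicate 2 and 110.51 to 135.47 FPKM in the other 5 mice. Eng, a co-receptor of endothelial cells, had 31.41 FPKM there and 54.23 to 58.57 FPKM elsewhere. The 8 fibroblast and pericyte markers summed to 324 to 386 FPKM in Ptpn6+/mev mice and to 396, 102 and 402 FPKM in wild-type mice, and among them Acta2, smooth muscle actin, had 45.01 FPKM in wild-type replicate 2 and Col3a1, a fibrillar collagen, 20.21 FPKM. No marker of either list was at 0 in any mouse. None of the 10 or of the 8 passed edgeR's quasi-likelihood test between the groups, with 0 at an unadjusted p under 0.05 and 0 past edgeR's exact test. Without wild-type replicate 2, 0 of the 10 endothelial markers passed and their median log2 fold change moved from 0.16 to -0.19. In that fit 2 of the 8 fibroblast and pericyte markers were lower, Dcn (adjusted p = 0.0354 in edgeR) and Pdgfra (0.0463), which were named after their values were seen, and the median of the list moved from -0.08 to -0.54. The part of these cells in the Ccnd2 values was not tested. In RNA from whole kidney, fewer cells of a type and less RNA per cell cannot be told apart.

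Summed over the 3 genes, D-type cyclin transcripts came to 170.6 ± 5.44 FPKM (SD, n = 3) in Ptpn6+/mev mice and 137.6 ± 7.76 FPKM in wild-type mice. The sum ran from 164.3 to 174.1 in the first group and from 130.1 to 145.5 in the second. Ccnd1 made up 64.2%, 65.2% and 64.0% of the sum in Ptpn6+/mev mice and 52.3%, 56.7% and 48.0% in wild-type mice. The share of Ccnd3 was 33.6% ± 0.74 and 44.8% ± 3.34, and that of Ccnd2 was 1.98% ± 0.31 and 2.87% ± 1.49. Thus the shares of Ccnd1 and Ccnd3 did not overlap between the groups, and in wild-type replicate 3 Ccnd3 slightly exceeded Ccnd1. These shares come from the FPKM values and were not tested.

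**Figure D2:**
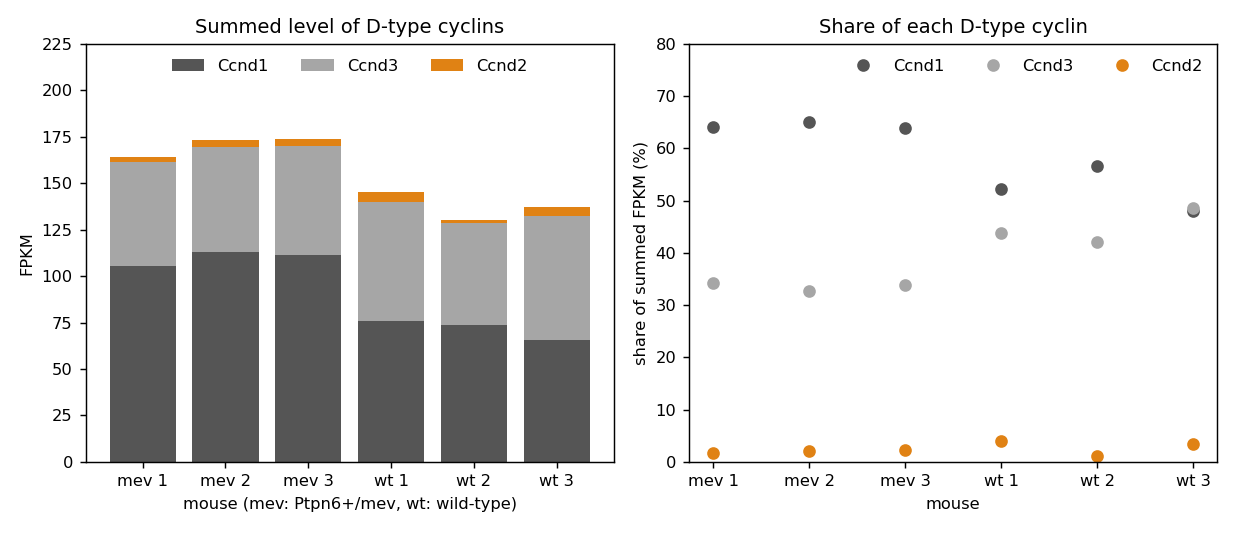
Left, FPKM of Ccnd1, Ccnd3 and Ccnd2 stacked for each mouse; right, the share of each gene in that sum (%). The Ccnd1 share lies at 64.0% to 65.2% in the 3 Ptpn6+/mev mice and at 48.0% to 56.7% in the 3 wild-type mice.

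All 3 kinases had a fold change above 1, and none passed the adjusted threshold. Cdk4, a catalytic partner of the D-type cyclins (plus strand, chr10:127063534-127067920), had 195.0, 232.0 and 211.8 CPM in Ptpn6+/mev mice and 192.6, 139.9 and 194.8 CPM in wild-type mice. The groups only just failed to touch, and wild-type replicate 2 was the lowest mouse. Cdk4 thus had a log2 fold change of 0.28 (95% interval -0.05 to 0.60, adjusted p = 0.487 in edgeR's quasi-likelihood test), and 0.13 without wild-type replicate 2.

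Cdk6, the other partner of the D-type cyclins (plus strand, chr5:3341485-3531008), had 89.4, 75.7 and 76.0 CPM in Ptpn6+/mev mice and 53.5, 57.2 and 69.9 CPM in wild-type mice, with no overlap. The log2 fold change was 0.42 (95% interval 0.12 to 0.71), and the adjusted p of 0.234 in edgeR's quasi-likelihood test missed the threshold. In FPKM the separation was lost: the values were 17.28, 19.91 and 12.53 in Ptpn6+/mev mice and 10.91, 9.14 and 20.81 in wild-type mice, and wild-type replicate 3 was the highest of all. The deposited count divided by the FPKM and by the library total gives the transcript length behind each FPKM value. For Cdk6 that length ran from 3382 bases in wild-type replicate 3 to 6237 bases in Ptpn6+/mev replicate 3, a ratio of 1.84 that exceeded the ratio of 98.8% of the 11062 genes compared, whose median was 1.02. The annotated coding transcripts of Cdk6 run from 376 to 11525 bases. The same length was nearly constant for Ccnd1 (3752 to 3753 bases), which has 1 annotated coding transcript, of 3740 bases. It was also nearly constant for Rb1, at 4666 to 4676 bases. It ran from 5060 to 6369 bases for Ccnd2 and from 1480 to 1818 bases for Cdkn2c.

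**Figure D3:**
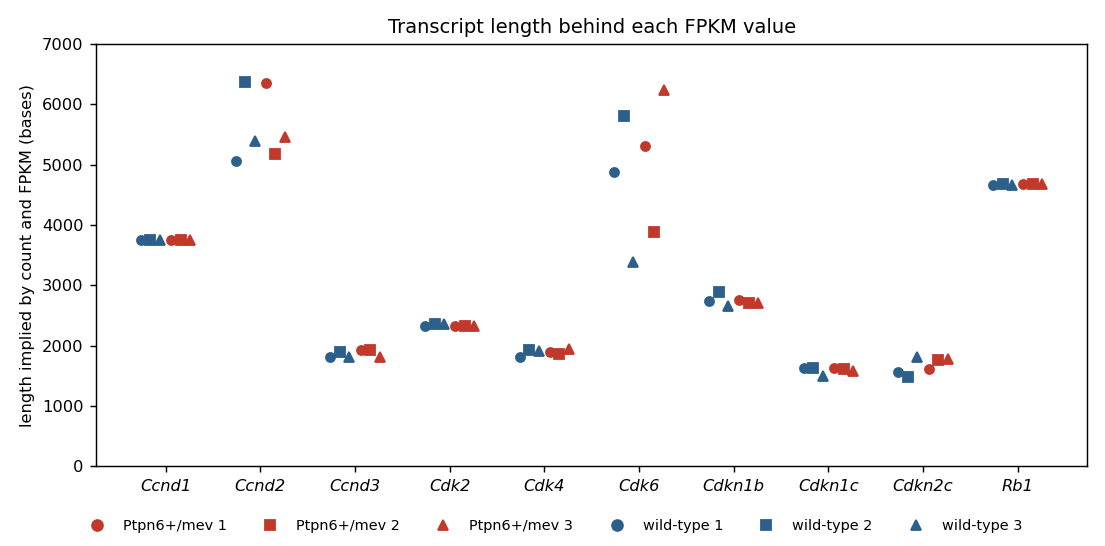
Transcript length (bases) implied by the deposited count and FPKM of each gene in each mouse, with wild-type mice in blue and Ptpn6+/mev mice in red. Cdk6 spreads from 3382 to 6237 bases, while Ccnd1 and Rb1 stay nearly level across the 6 mice.

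By FPKM, Cdk4 made up 87.5% ± 2.16 (SD, n = 3) of the sum of Cdk4 and Cdk6 in Ptpn6+/mev mice and 87.3% ± 3.80 in wild-type mice. These shares overlapped between the groups.

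Cdk2, the kinase that works with cyclin E and cyclin A (minus strand, chr10:128697939-128705031), had 18.45, 17.34 and 17.87 FPKM in Ptpn6+/mev mice and 14.88, 11.55 and 15.15 FPKM in wild-type mice. Every Ptpn6+/mev mouse lay above every wild-type mouse in FPKM and in CPM, and the spread in FPKM was 3.10% of the mean in the first group and 14.5% in the second. The log2 fold change was 0.29 (95% interval 0.03 to 0.54, adjusted p = 0.339 in edgeR's quasi-likelihood test). It was 0.20 without wild-type replicate 2, which was the lowest mouse here too.

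Of the inhibitors, Cdkn2c had the largest fold change. Cdkn2c, the INK4 member (minus strand, chr4:109660876-109667189), had 11.32, 13.04 and 12.43 FPKM in Ptpn6+/mev mice and 9.72, 8.06 and 7.43 FPKM in wild-type mice. The groups did not overlap in FPKM or in CPM. The fold change was 1.49 (95% interval 1.18 to 1.88), or 0.57 on the log2 scale with a standard error of 0.15. The adjusted p of 0.172 in edgeR's quasi-likelihood test missed the threshold, as did the exact test's 0.0615 and DESeq2's 0.0640. With 131 to 237 counts a mouse, counting error alone would give a coefficient of variation of 7.31%, beside 11.6% and 8.88% measured in Ptpn6+/mev and wild-type mice in CPM.

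Neither CIP/KIP gene among the 10 differed beyond the spread between mice. Cdkn1b (plus strand, chr6:134920401-134925513) had 13.25, 10.88 and 11.83 FPKM in Ptpn6+/mev mice and 10.16, 10.02 and 12.72 FPKM in wild-type mice. On the log2 scale the groups differed by 0.05 (95% interval -0.24 to 0.34, adjusted p = 0.926 in edgeR's quasi-likelihood test). Cdkn1c (minus strand, chr7:143458339-143461050) had 24.17, 16.24 and 19.78 FPKM in Ptpn6+/mev mice and 18.37, 18.50 and 19.73 FPKM in wild-type mice, where the first group spread over the whole range of the second. On the log2 scale the groups differed by 0.04 (95% interval -0.32 to 0.40, adjusted p = 0.949 in edgeR's quasi-likelihood test). With 1 mouse left out in turn, Cdkn1b ran from -0.041 without Ptpn6+/mev replicate 1 to 0.113 without Ptpn6+/mev replicate 2, and Cdkn1c from -0.128 to 0.172 without the same mice, so neither kept its direction. The intervals leave room for a fold change of up to 1.26 for Cdkn1b and 1.32 for Cdkn1c.

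In adult kidney p57 is best known from podocytes, the filter cells of the glomerulus. Besides Cdkn1c, 7 podocyte markers were tested. None of the 7 passed edgeR's quasi-likelihood test or its exact test, and 0 had an unadjusted p under 0.05. Their summed FPKM was 106 to 134 in Ptpn6+/mev mice and 81.5 to 122 in wild-type mice, with no marker at 0. Podxl, a coat protein of podocytes, had 61.35 to 80 FPKM in Ptpn6+/mev mice and 43.26 to 68.81 FPKM in wild-type mice. The part of podocytes in the Cdkn1c values was not tested.

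Rb1 (minus strand, chr14:73183673-73325822), the pocket protein on which these kinases act, had the lowest mean level of the 10 over the 6 mice, while in Ptpn6+/mev mice alone Ccnd2 was slightly lower. Its FPKM was 3.56, 3.41 and 3.30 in Ptpn6+/mev mice and 2.84, 4.89 and 2.67 in wild-type mice. The Ptpn6+/mev values lay between those of wild-type replicate 2, the highest, and those of the other wild-type mice. The log2 fold change was -0.10 (95% interval -0.70 to 0.50, adjusted p = 0.924 in edgeR's quasi-likelihood test). Without wild-type replicate 2 it turned to 0.28, with an adjusted p of 0.349 in the same edgeR test, and over all 15 alternatives the adjusted p ranged from 0.349 to 0.987.

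**Figure D4:**
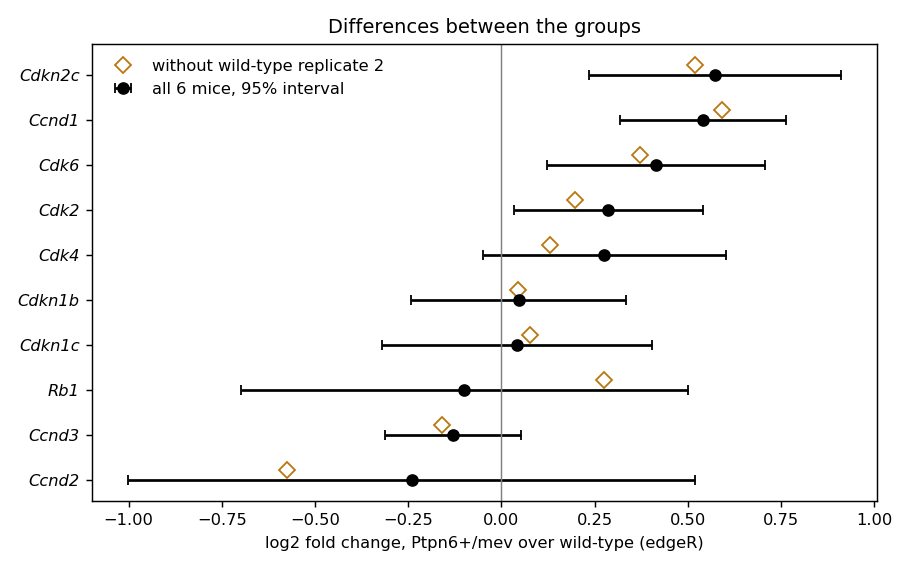
Log2 fold change of Ptpn6+/mev over wild-type mice for the 10 genes from edgeR, with filled points and 95% intervals for all 6 mice and open diamonds for the fit without wild-type replicate 2. The intervals of Cdkn2c, Ccnd1, Cdk6 and Cdk2 lie above 0, and the diamond of Rb1 lies on the other side of 0 from its point.

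Some of these counts are tied to those of a neighbouring gene. Cdk4 shares 641 exonic bases with Tspan31, and Ccnd3 shares 361 with Bysl, each on the opposite strand. The deposited counts of Cdk4 and Ccnd3 were fractional, but the sums Cdk4 plus Tspan31 and Ccnd3 plus Bysl were whole in 6 of 6 mice, within 0.011. The Cdk4 and Tspan31 sums were 3200.0, 3664 and 3524 counts in Ptpn6+/mev mice and 3237, 2669 and 3714 in wild-type mice. On normalized counts the sum with Tspan31 had a log2 ratio of 0.17, beside 0.28 for Cdk4 by itself, and the sum with Bysl had -0.12, beside -0.13 for Ccnd3. Ccnd1 also had fractional counts. An annotated gene on the opposite strand shares 1100 exonic bases with Ccnd1 and was not analysed here, so no such sum was checked for it, and its counts carry that uncertainty. Whether the counting used strand is not given in the sources used here.

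Promoter sequences from RefSeq (GRCm38.p6) were given for 6 of the 10 genes, with 8 start sites in all. In the 250 bases before each start, both strands were searched for the core letters of the E2F motif, TTNNCGC with each N a C or a G. Such a match occurred before 9.01% of the 27025 genes in the RefSeq table, and before 2 of the 6 matched here, Cdk2 and Cdkn2c. The Cdk2 window (minus strand, chr10:128705052-128705301) held 2 matches, whose first bases lie 140 and 10 bases before the start. The Cdkn2c window (minus strand, chr4:109666757-109667006) held 1, at 25 bases before the start. A second Cdkn2c start, both Ccnd3 starts and those of Cdk4, Cdk6 and Cdkn1b held none. The 2 windows with a match are shown 5′ to 3′ on the strand of the gene, with the matches in capitals, and that of Cdk4 (plus strand, chr10:127063285-127063534) is shown as one without. A match is a string of letters and not a measured site, and its absence says only that these letters are not in the window.
Cdk2: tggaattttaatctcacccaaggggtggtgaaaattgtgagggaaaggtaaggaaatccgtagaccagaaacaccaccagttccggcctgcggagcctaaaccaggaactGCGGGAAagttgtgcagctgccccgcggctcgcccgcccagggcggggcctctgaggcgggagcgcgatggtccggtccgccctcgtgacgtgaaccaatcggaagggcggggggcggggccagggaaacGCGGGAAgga
Cdkn2c: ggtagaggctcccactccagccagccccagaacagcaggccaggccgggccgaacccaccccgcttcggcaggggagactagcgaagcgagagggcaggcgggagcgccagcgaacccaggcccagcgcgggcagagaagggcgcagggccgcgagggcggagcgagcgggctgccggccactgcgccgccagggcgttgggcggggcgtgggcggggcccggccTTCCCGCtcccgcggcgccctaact
Cdk4: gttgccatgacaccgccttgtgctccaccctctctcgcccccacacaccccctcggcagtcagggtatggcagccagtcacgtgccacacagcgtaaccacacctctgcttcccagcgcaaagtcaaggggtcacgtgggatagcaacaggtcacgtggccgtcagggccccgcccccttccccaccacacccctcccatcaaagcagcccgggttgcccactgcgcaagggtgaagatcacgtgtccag

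The other regulators of the step from G1 to S phase were described from a list of 30 genes, of which 29 were tested. None passed edgeR's quasi-likelihood test, and the median log2 fold change was 0.17. At an unadjusted p under 0.05, 10 were higher and 0 lower, where 5.53% and 6.71% of all tested genes were. The E-type cyclins, which activate CDK2, had larger fold changes than the D-type cyclins and wide intervals. Ccne1 had 6.70 ± 2.17 FPKM (SD, n = 3) in Ptpn6+/mev mice and 3.13 ± 1.33 in wild-type mice, which is 1.05 on the log2 scale (95% interval 0.24 to 1.85, adjusted p = 0.278 in edgeR). Ccne2 had 0.85 ± 0.15 and 0.36 ± 0.20 FPKM, a log2 fold change of 1.14 (0.17 to 2.11, adjusted p = 0.321 in edgeR). The groups did not overlap for either gene in FPKM or in CPM. Wild-type replicate 2 was the lowest mouse for both, and without it the log2 fold changes were 0.75 and 0.81. Ccne1 had 35 to 190 counts a mouse and Ccne2 had 5 to 30. Counting error alone would give coefficients of variation of 9.7% and 22.8%.

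Cdkn1a encodes p21, the CIP/KIP inhibitor induced by p53. It had 102.51, 66.04 and 82.4 FPKM in Ptpn6+/mev mice and 49.84, 53.72 and 57.89 FPKM in wild-type mice, with a log2 fold change of 0.56 and an adjusted p of 0.196 in edgeR's quasi-likelihood test. It was thus more abundant than any of the 3 inhibitors among the 10 genes in every mouse. The activator E2f1 had a log2 fold change of 0.85 (adjusted p = 0.294 in edgeR), or 0.57 without wild-type replicate 2. Its partner Tfdp1 had 0.50, or 0.32 without that mouse. The repressors E2f8 and E2f6 had 1.77 and 0.36, or 1.48 and 0.27 without that mouse. Cks1b, a CDK-binding adaptor, had 0.52, or 0.43 without it. E2f8 stood at 1.7, 2.76 and 1.9 FPKM against 0.66, 0.31 and 0.85 FPKM, with an adjusted p of 0.104 in edgeR's quasi-likelihood test. It was the 1 gene of the list past the threshold in edgeR's exact test, and the 1 past it without wild-type replicate 2. Of all tested genes 2.99% and 1.8% passed there. The pocket protein genes related to Rb1, Rbl1 and Rbl2, had 0.24 and -0.003, with adjusted p of 0.647 and 0.995 in edgeR's quasi-likelihood test, and Rbl2 had 0.04 without wild-type replicate 2.

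Genes that act after the G1 step had larger fold changes. Of 18 S phase genes, 1 passed edgeR's quasi-likelihood test, where 0.138% of all tested genes passed, and the median log2 fold change was 0.62. At an unadjusted p under 0.05, 8 of the 18 were higher and 0 lower, where 5.53% and 6.71% of all tested genes were. The 1 that passed was Ccna2, the cyclin of S phase and mitosis, which rose from 1.19 ± 0.17 to 5.18 ± 1.52 FPKM (SD, n = 3), a log2 fold change of 2.05 (adjusted p = 0.0398 in edgeR's quasi-likelihood test). Rrm2, a subunit of ribonucleotide reductase, had 1.23 (adjusted p = 0.0852 in edgeR, or 0.0301 without wild-type replicate 2). Of 12 mitotic genes none passed, and 11 were higher and 0 lower at an unadjusted p under 0.05, beside the same 5.53% and 6.71%. Their median was 1.41, or 1.23 without wild-type replicate 2, where that of the S phase genes was 0.41. Among them Top2a, a topoisomerase of dividing cells, had 1.72 (adjusted p = 0.0539 in edgeR, or 0.0184 without wild-type replicate 2), and Cdk1, the mitotic kinase, had 1.49 (adjusted p = 0.0685 in edgeR, or 0.0287 without that mouse). Without wild-type replicate 2, 3 of the 18 S phase genes and 4 of the 12 mitotic genes passed, and in edgeR's exact test 5 and 8 did, all higher. Over all tested genes 1.8% passed without that mouse and 2.99% in the exact test. The medians of the lists, 0.16 for the 10 G1 genes, 0.17, 0.62 and 1.41, are descriptions and their differences were not tested. The lists were chosen with earlier results of these data known, and the paper names some of the mitotic genes as higher in the same comparison. Their counts beside the shares of all genes are therefore descriptions too.

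**Figure D5:**
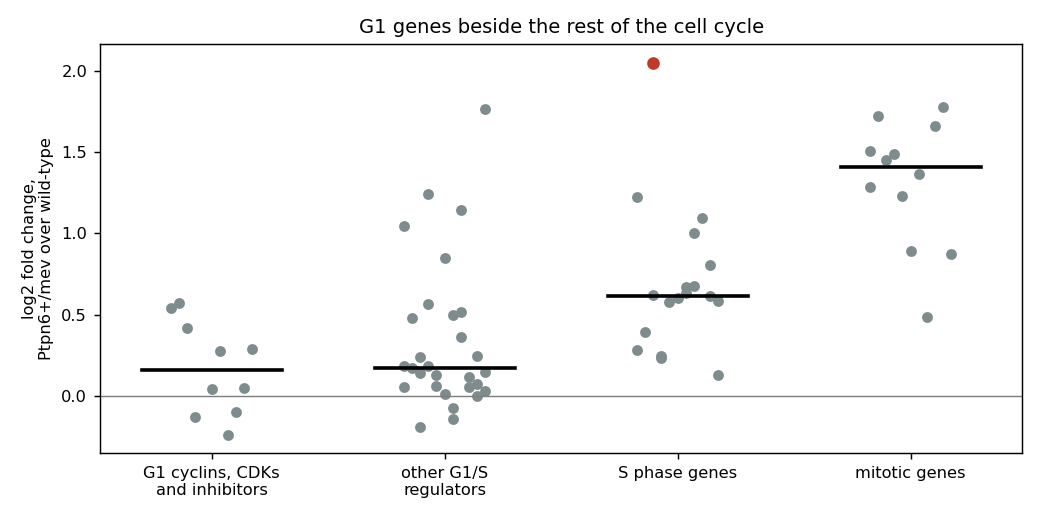
Log2 fold change of Ptpn6+/mev over wild-type mice (edgeR) for each gene of 4 lists, with the median as a black bar and the gene past a false discovery rate of 0.05 in red. The bars stand at 0.16 for the 10 G1 genes, 0.17 for the other G1/S regulators, 0.62 for S phase genes and 1.41 for mitotic genes, and the red point is Ccna2.

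Of 10 markers of the proximal tubule, 1 was lower in edgeR's quasi-likelihood test (Slc22a8, an organic anion transporter, named because it was the only one). At an unadjusted p under 0.05, 6 of the 10 were lower and 0 higher, where 6.71% and 5.53% of all tested genes were. In edgeR's exact test 4 were lower, where 2.99% of all genes passed. Without wild-type replicate 2, 5 were lower in the quasi-likelihood test, where 1.8% of all genes passed. The summed FPKM of the 10 markers was 508 to 640 in Ptpn6+/mev mice and 739 to 884 in wild-type mice, so the sums did not overlap, and no marker was at 0. Slc34a1, a phosphate transporter, had 192.76 to 256.19 FPKM in Ptpn6+/mev mice and 175.57 to 312.71 FPKM in wild-type mice. Slc22a6, another organic anion transporter, had 70.35 to 99 FPKM and 130.42 to 182.51 FPKM. Of 10 markers of injured tubule, 0 passed edgeR's quasi-likelihood test. At an unadjusted p under 0.05, 4 of them were higher and 1 lower, where 5.53% and 6.71% of all tested genes were. In CPM, 5 of the 10 had every Ptpn6+/mev mouse above every wild-type mouse, as did 9.64% of all tested genes. In edgeR's exact test 1 of these 10 markers was higher, and with wild-type replicate 2 left out 2 were higher in the quasi-likelihood test. Their summed FPKM was 27090 to 33110 in Ptpn6+/mev mice and 30340 to 39050 in wild-type mice, with no marker at 0. Spp1, which encodes osteopontin, had 20881 to 25507 FPKM in Ptpn6+/mev mice and 24406 to 32920 FPKM in wild-type mice, and makes up most of that sum. Clu, which encodes clusterin, had 2284 to 2565 FPKM and 1758 to 2766 FPKM. Spp1 was the 1 lower marker, with a log2 fold change of -0.38. The 4 higher were Vcam1 (1.05), Krt18 (0.55), Krt8 (0.28) and Havcr1 (0.27), named after their values were seen. Over the 10 markers of injured tubule the median log2 fold change was 0.21, or 0.30 without wild-type replicate 2. The part of these shifts in the Ccnd1 and Cdkn2c values was not tested.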

How the data were processed

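RNA from 6 kidneys was sequenced, 1 library per mouse. The paper's methods name TopHat and Cufflinks, and the submitters' processing notes also name Bowtie2, TopHat2 2.0.3.12, RSEM and build GRCm38.p5. For every gene and mouse the authors deposited an estimated count beside an FPKM. The tool that made the counts is not given in the sources used here.

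Counts were rounded to whole numbers. edgeR 4.0.16 in R 4.3.3 was run with filterByExpr, TMM normalization and the quasi-likelihood F-test on group. Benjamini-Hochberg adjustment ran over 13036 genes, at a threshold of 0.05. The p-values set the difference between the groups against the spread between mice, which edgeR estimates with information shared across genes. CPM values are TMM-normalized. The fit was tested on simulated counts whose log2 changes were larger than that of any of the 10 genes. That test does not bear on changes of their size, or on a library that stands apart. The 15 alternatives were DESeq2's size factors, upper quartile normalization, no filter, at least 10 counts in every mouse, DESeq2 1.42.0, edgeR's exact test, limma 3.58.1 on log2(FPKM + 1) and log2(FPKM + 0.1), a replicate block, and each mouse left out.

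The 10 genes and the lists were chosen with earlier results of these data known. Named beyond the 10 were 6 direct partners and the 4 other G1/S regulators with the lowest p, the 2 S phase and the 2 mitotic genes with the lowest p, and the 2 most abundant markers of each list set beside a gene, except that 1 listed marker is not reported here. Genes closest in pattern were named for the 3 of the 10 genes with the lowest p. The E2F letters were chosen after the promoter sequences had been seen. Gene positions are from GENCODE M21 (GRCm38). KEGG pathways are those in the deposited table.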

Additional observations from a re-analysis of the deposited data

How the results depend on the processing

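With all 6 mice, 0 of the 10 genes passed edgeR's quasi-likelihood test, and 1, Ccnd1, passed in DESeq2 and 1 in edgeR's exact test. Leaving out 1 mouse in turn gave 0 to 1, the 1 being Ccnd1 without wild-type replicate 2. Over all genes 18 passed. The number was 52 with no filter on low counts, 387 in DESeq2, 390 in the exact test, and 1 to 237 with 1 mouse left out, the lowest without Ptpn6+/mev replicate 3 and the highest without wild-type replicate 2. With a replicate block 1 gene passed and 0 of the 10 did. Same-numbered mice did not deviate together (r of -0.144, -0.184 and -0.13 across genes, which are not independent replicates), so the numbers were not read as pairs. Of 150 log2 fold changes of the 10 genes under the alternatives, 140 kept their sign and their side of the threshold, 3 passed it (Ccnd1) and 7 changed sign, none of them past the threshold. Those 7 were Ccnd2 at 0.024 without wild-type replicate 1, Cdkn1b at -0.041 without Ptpn6+/mev replicate 1 and -0.025 without wild-type replicate 1, Cdkn1c at -0.128 without Ptpn6+/mev replicate 1, and Rb1 at 0.275 without wild-type replicate 2, 0.0197 with limma on log2(FPKM + 1) and 0.0347 with limma on log2(FPKM + 0.1). In the limma fits on FPKM the median log2 fold change of all tested genes was 0.0624 and 0.0763, in the same order. Rb1 lay below that median in both, so there its change of sign was not a change of side against all genes. With 1 mouse left out, Ccnd2 ranged from -0.574 to 0.024, Cdkn1b from -0.041 to 0.113, Cdkn1c from -0.128 to 0.172 and Rb1 from -0.280 to 0.275. The cause of these moves was not tested. Counting error would give coefficients of variation of 1.65% (Ccnd1) to 7.56% (Rb1) in CPM, and between wild-type mice they were 45.8% for Ccnd2 and 40.6% for Rb1.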

Other observations

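Across the 6 mice, the tested genes whose log2(FPKM + 1) was most alike that of Ccnd1 were Rpl36al (Pearson r = 0.990), Ndc1 (0.989) and S100a1 (0.985). For Cdkn2c they were Dcbld1 (0.991), Ipo11 (0.989) and Arf2 (0.981). For Cdk6, whose FPKM varied with the implied length, the closest was Ube2e2 (0.995). These are descriptions over 6 mice, picked as the highest of all tested genes.

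In the KEGG annotation of the deposited table all 10 genes were listed under Cell cycle. Of 122 genes with that term 116 were tested, 1 passed edgeR's quasi-likelihood test (Ccna2, higher), 29 were higher and 2 lower at an unadjusted p under 0.05, and the median log2 fold change was 0.13. The PI3K-Akt signaling pathway listed 7 of the 10 genes. Of its 259 tested genes none passed, and 24 were higher and 14 lower at an unadjusted p under 0.05. The p53 signaling pathway listed 6 of the 10 genes. Of its 62 tested genes none passed, and 14 were higher and 0 lower at an unadjusted p under 0.05. Over all tested genes 5.53% were higher and 6.71% lower at that level.

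Ccnd2 and Cdkn1b lie on the chromosome of Ptpn6, at 2.39 and 10.2 Mb from it. Of 10 lymphocyte markers none had enough reads to be tested, with at most 23 counts in a mouse, and of 10 macrophage markers none passed edgeR's quasi-likelihood test, with summed FPKM of 215 to 334 in Ptpn6+/mev mice and 176 to 303 in wild-type mice. Without wild-type replicate 2 the macrophage median log2 fold change moved from 0.15 to -0.11. None of the 5 neutrophil markers tested passed either, with 0 at an unadjusted p under 0.05. Of 10 distal nephron markers 0 passed and 3 were lower at an unadjusted p under 0.05 (6.71% of all tested genes were), with a median log2 fold change of -0.23. Without wild-type replicate 2 that median was 0.19 and 1 marker, Kcnj1, named after its value was seen, was higher (log2 fold change 0.92, adjusted p = 0.00367 in edgeR's quasi-likelihood test), where it was -0.13 with all 6 mice.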
